A study of Homo sapiens with 6 samples.

Results

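The TRIM24 peaks examined here lie in the intervals of 6p22 that hold the HIST1 histone genes, the main group of replication-dependent histone genes in the human genome. Membership was set by position alone. A peak was a member if its midpoint fell in chr6:26015000-26290000 (subcluster 1) or in chr6:27095000-27870000 (subcluster 2) of hg19. The 3 peak lists held 27 such peaks among 37470 in all. Of these, 23 came from the LNCaP-abl list of 20621 peaks, 2 from the LNCaP vehicle list of 9744 and 2 from the LNCaP dihydrotestosterone (DHT) list of 7105. Where overlapping peaks of different lists were joined, they formed 23 regions.

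TRIM24 occupancy was measured by chromatin immunoprecipitation and sequencing in a pair of related human prostate cancer cell lines. LNCaP cells, an androgen-dependent line, were kept for 72 h in charcoal/dextran-treated serum, which is poor in steroid hormones, and then received ethanol vehicle or 10 nM of the androgen DHT for 4 h. LNCaP-abl cells, a castration-resistant derivative of LNCaP, were always cultured in such serum and received vehicle for 4 h. There was 1 TRIM24 library for each condition, so differences between conditions have no replicate check and were not tested. The lists do not give read numbers, and the depth of the libraries is unknown. The 3 input libraries were not analysed here.

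Replication-dependent histone genes supply the core histones H2A, H2B, H3 and H4 and the linker histone H1 that package newly made DNA. They are short genes without introns, mostly active in S phase, and their messages end in a conserved stem-loop in place of a poly(A) tail. The factor NPAT drives their transcription in a nuclear compartment called the histone locus body. TRIM24 is a coregulator of nuclear receptors whose PHD finger and bromodomain together read the tail of histone H3.

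In the RefSeq gene table of assembly GRCh38.p14, used for names and gene order only, 53 protein-coding HIST1 genes formed a pair of runs. The first, from H1-1 to H4C8, held 32 genes (5 of the H1 family, 4 of H2A, 8 of H2B, 7 of H3 and 8 of H4). The second, from H2BC11 to H2BC17, held 21 genes (1 of H1, 7 of H2A, 6 of H2B, 3 of H3 and 4 of H4). H2AC1 and H2BC1, which lie before the first run and apart from it, were left out of these counts. Other genes lie among the histone genes of both runs. HFE, a regulator of iron uptake, was the 1 other coding gene in the first run. In the second run 5 histone genes were followed by a stretch with 5 other coding genes, among them the zinc-finger genes ZNF391 and ZNF184 and the protease gene PRSS16, and with 51 tRNA genes, before the remaining 16 histone genes. No annotation or sequence of hg19 was used here, so no peak was assigned to a gene and no peak sequence is shown.

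Promoters of the histone genes hold short elements that most promoters lack, some of them in certain families only. They are shown to describe the genes of these intervals, and no peak was placed on them. RefSeq promoter windows (GRCh38.p14, 250 bases before to 50 after the start) were matched for 48 of the 53 genes, which had 52 windows. The TATA box string TATAAA was found on either strand in 34 of the 52 (65.4%), against 11.5% of all 35116 windows of the table. CCAAT, the string of the box bound by NF-Y, was found in 45 (86.5%) against 34.6%. It was present in all windows of the H1, H2A, H2B and H3 families and in 3 of 10 of the H4 family. The octamer ATTTGCAT, known to be bound by POU2F1, was found in 12 of 16 H2B windows and 8 of 10 H2A windows, against 1.77% of all windows. In the other families it was found in 1 of 10 H3 windows, 0 of 6 H1 windows and 0 of 10 H4 windows. AAACACA, known as the H1 box, was found in 6 of 6 H1 windows and in 0 of the other 46, against 5.64% of all windows. Matches are strings on either strand and can share bases with one another. The 250 bases before the start are given for the first H1 gene and the first H2B gene of the first run, to set both family elements side by side. Capitals mark TATAAA and CCAAT in both sequences, AAACACA in H1-1 and ATTTGCAT in H2BC3, on either strand.
H1-1: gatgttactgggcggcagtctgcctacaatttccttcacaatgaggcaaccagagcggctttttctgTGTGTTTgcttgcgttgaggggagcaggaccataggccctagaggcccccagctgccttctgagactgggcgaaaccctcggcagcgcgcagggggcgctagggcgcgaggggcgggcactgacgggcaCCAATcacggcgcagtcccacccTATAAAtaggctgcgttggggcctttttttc
H2BC3: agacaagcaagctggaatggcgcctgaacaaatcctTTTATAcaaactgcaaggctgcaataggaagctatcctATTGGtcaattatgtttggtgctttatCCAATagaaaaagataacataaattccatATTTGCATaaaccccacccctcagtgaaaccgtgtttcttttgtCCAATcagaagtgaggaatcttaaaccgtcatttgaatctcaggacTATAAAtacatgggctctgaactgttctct
H1-1 had the H1 box 183 bases, a CCAAT box 54 bases and a TATA box 31 bases before its start. H2BC3 had the octamer 120 bases and a TATA box 30 bases before its start, with CCAAT strings at 176, 149 and 76 bases. A further TATAAA string lay 214 bases before the start of H2BC3. That string, the CCAAT string at 176 bases and the H1 box of H1-1 are on the opposite strand.

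In LNCaP-abl, TRIM24 peaks were spread over both subclusters, and nearly all of them were weak. Subcluster 1 held 7 LNCaP-abl peaks and subcluster 2 held 16. These are counts by position and not counts of peaks at histone genes. The second gene run, for example, also held 5 other coding genes and 51 tRNA genes. Neither LNCaP list had a peak in subcluster 1, and each had 2 in subcluster 2. The 23 joined regions therefore all had a LNCaP-abl peak. Of these regions, 20 were in LNCaP-abl alone, and 1 each was shared with vehicle, with DHT and with both. In the rest of chromosome 6, 605 of 1043 regions (58.0%) were in LNCaP-abl alone and 17.1% in all 3 lists.

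**Figure D1:**
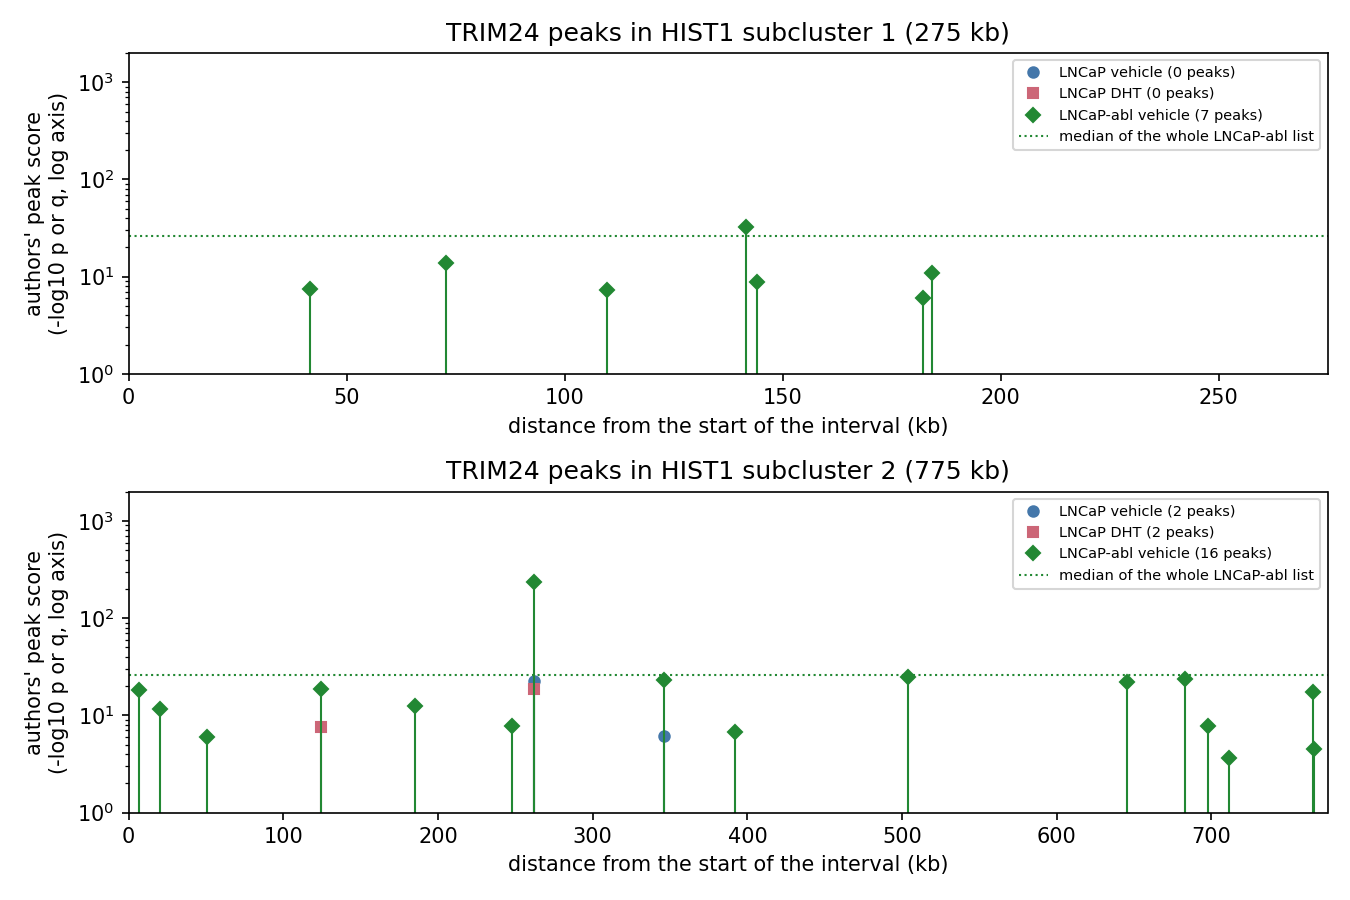
TRIM24 peaks of the 3 lists along subcluster 1 (top) and subcluster 2 (bottom), with the distance from the start of the interval in kb on the x axis and the authors' score (−log10 of a p- or q-value, log axis) on the y axis. Each symbol is 1 peak, the dotted line is the median score of the whole LNCaP-abl list (26.1), and 2 of the 23 LNCaP-abl peaks lie above it.

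A single strong TRIM24 site stood out, at chr6:27356514-27357139 in subcluster 2. It was the only member region present in all 3 lists. The authors' score, −log10 of a p- or q-value, was 22.5 under vehicle, 18.5 under DHT and 233 in LNCaP-abl. Scores rise with depth and are read here only within their own list. By rank the site was number 440 of 9744 under vehicle, 559 of 7105 under DHT and 343 of 20621 in LNCaP-abl, which places it among the best-scoring 4.52%, 7.87% and 1.66% of the lists. The site thus had a high rank in each library, and it was the only member within the best-scoring decile of any list. Its peaks were 359 bp wide under vehicle, 364 bp under DHT and 626 bp in LNCaP-abl.

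The other peaks of the LNCaP lists were weaker, and each was present under a single treatment. A DHT peak at chr6:27219167-27219767 had a score of 7.66, close to the median of its list (6.82), and overlapped a LNCaP-abl peak with a score of 18.6. The vehicle list had no peak within 136.7 kb of that region. A vehicle peak at chr6:27440775-27441020 had a score of 6.20, below the median of its list (6.46), and overlapped a LNCaP-abl peak with a score of 23.3. The nearest DHT peak lay 83.7 kb away. With 1 library each and scores near the middle of the lists, these absences cannot be told apart from a peak just under the calling cutoff.

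In subcluster 1 the LNCaP-abl peaks ran from 26.06 to 26.20 Mb. The best-scoring was chr6:26156418-26156963, with a score of 32.5 and a width of 546 bp, and it was the only peak of the subcluster above the median of the LNCaP-abl list (26.1). A weaker peak with a score of 8.91, chr6:26159048-26159342, lay 2.50 kb from it between midpoints. The next in score were chr6:26087576-26087864 with 13.9 and chr6:26199160-26199575 with 10.8. The peaks at chr6:26056503-26056773 and chr6:26124457-26124762 had scores of 7.52 and 7.36. The lowest, chr6:26197157-26197426 with 5.996, lay 2.08 kb from the peak with 10.8. Of the 7 peaks, 4 thus formed 2 close pairs, each of a better-scoring and a weaker peak. None of the 7 had a LNCaP peak nearby, since the nearest vehicle peak was between 123 and 266 kb away and the nearest DHT peak between 321 and 433 kb away. From 200 kb after its start to its end, subcluster 1 held no peak of any list.

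In subcluster 2 the LNCaP-abl peaks spanned nearly the whole interval, from 27.10 to 27.86 Mb. Behind the site shared by all lists, the best-scoring were chr6:27598499-27598890 with 25.1, chr6:27777774-27778275 with 23.7, chr6:27440646-27441466 with 23.3, chr6:27740340-27740582 with 21.9 and chr6:27219271-27219900 with 18.6. All 5 were below the median of the list, by a small margin in the case of the first. Those at 27.60, 27.78 and 27.74 Mb were in LNCaP-abl alone and were the best-scoring of that class in the subcluster. The lowest score of all members, 3.64, belonged to chr6:27805920-27806119, which ranked 20415 of 20621. The other 9 peaks had scores between 4.54 and 18.4.

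Neighbouring member regions lay a median of 31.6 kb apart in subcluster 1 and 46.0 kb apart in subcluster 2. The shortest distance was 0.702 kb, between chr6:27860613-27860971 (score 17.3) and chr6:27861339-27861649 (score 4.54). The longest was 141.8 kb, between the sites at 27.60 and 27.74 Mb. Just outside the end of subcluster 2, at 0.889 kb from the bound, lay a further LNCaP-abl peak at chr6:27870645-27871134 with a score of 22.0. A DHT peak with a score of 5.60 lay 1.32 kb from the same bound. Before the start of subcluster 1 the nearest LNCaP-abl peak was 22.1 kb away. The end of subcluster 2 thus runs through a group of peaks, whereas the start of subcluster 1 does not. At the other bounds, the nearest outside LNCaP-abl peak lay 32.7 kb after subcluster 1 and 107.1 kb before subcluster 2.

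Measured against the rest of chromosome 6, the HIST1 intervals were dense in LNCaP-abl peaks and near the chromosome's level in LNCaP peaks, when peaks of all scores were counted. They made up 0.614% of chromosome 6 up to its last peak. In LNCaP-abl they held 2.29% of the 1006 peaks of the chromosome (exact Clopper-Pearson 95% interval 1.45 to 3.41). That is 21.9 peaks per Mb against 5.79 in the rest, a ratio of 3.78 (2.39 to 5.71). Under vehicle there were 1.90 per Mb against 2.37 (ratio 0.803, 0.0969 to 2.92), and under DHT 1.90 against 1.84 (1.03, 0.125 to 3.76). These ranges reflect counting error alone, as if neighbouring peaks were independent, and with 2 peaks each the LNCaP ranges reach well below and well above 1. In LNCaP-abl the ratio was 4.35 (1.74 to 8.99) for subcluster 1 and 3.55 (2.0198 to 5.79) for subcluster 2, and these ranges overlap.

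The high LNCaP-abl density was not limited to the HIST1 intervals. The 805 kb between the subclusters had 16 LNCaP-abl peaks, or 19.9 per Mb, against 25.5 per Mb in subcluster 1 and 20.6 in subcluster 2. The 805 kb after subcluster 2 had 13 peaks (16.1 per Mb), and the 805 kb before subcluster 1 had 3 (3.73 per Mb). In the LNCaP lists the interval between the subclusters held 2 vehicle and 4 DHT peaks. The LNCaP-abl peaks between the subclusters had a median score of 9.87. Of these, 12 of 16 were in neither LNCaP list (75%, 47.6 to 92.7), a range that holds the shares of the members (87.0%), of the rest of chromosome 6 (61.5%) and of the whole list (57.8%). Both HIST1 intervals thus lay in a longer stretch with many LNCaP-abl peaks.

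**Figure D2:**
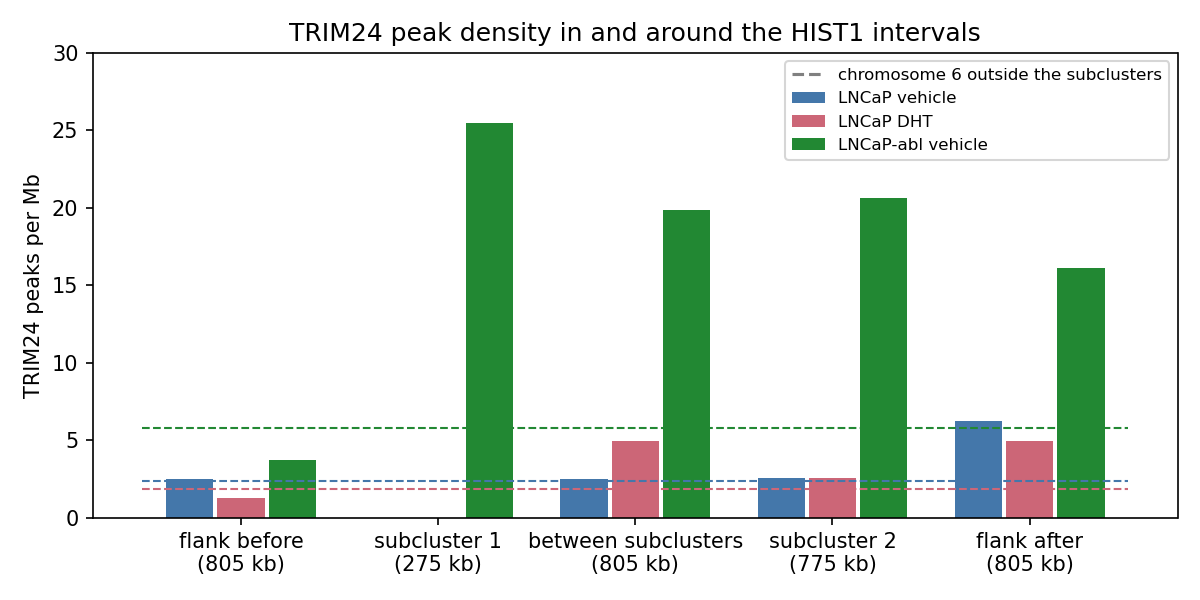
TRIM24 peaks per Mb (y axis) in the 2 HIST1 subclusters, the 805 kb between them and the 805 kb on either side, for each list. Bars are counts of 1 library divided by length, without error bars, and dashed lines give each list's density on chromosome 6 outside the subclusters. The LNCaP-abl bars reach 25.5, 19.9, 20.6 and 16.1 from subcluster 1 onward, above the 5.79 per Mb of the rest.

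A small share of chromosome 6 was as dense in LNCaP-abl peaks as the subclusters. Of 619 other windows of 275 kb, 30 (4.85%) held at least the 7 LNCaP-abl peaks of subcluster 1, and the median window held 1. Of 218 other windows of 775 kb, 13 (5.96%) held at least the 16 of subcluster 2, and the median window held 3. The densest windows held 22 and 27 peaks. Only a subcluster's own window was left out, so the other windows include the stretch between the subclusters and the other subcluster. The 275 kb window directly after subcluster 1, for example, held 7 LNCaP-abl peaks. For the 2 vehicle peaks of subcluster 2 the share of windows with at least as many was 45.9%, and for its 2 DHT peaks 36.2%. Subcluster 1 was without a vehicle peak like 390 of the 619 windows, and without a DHT peak like 436.

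**Figure D3:**
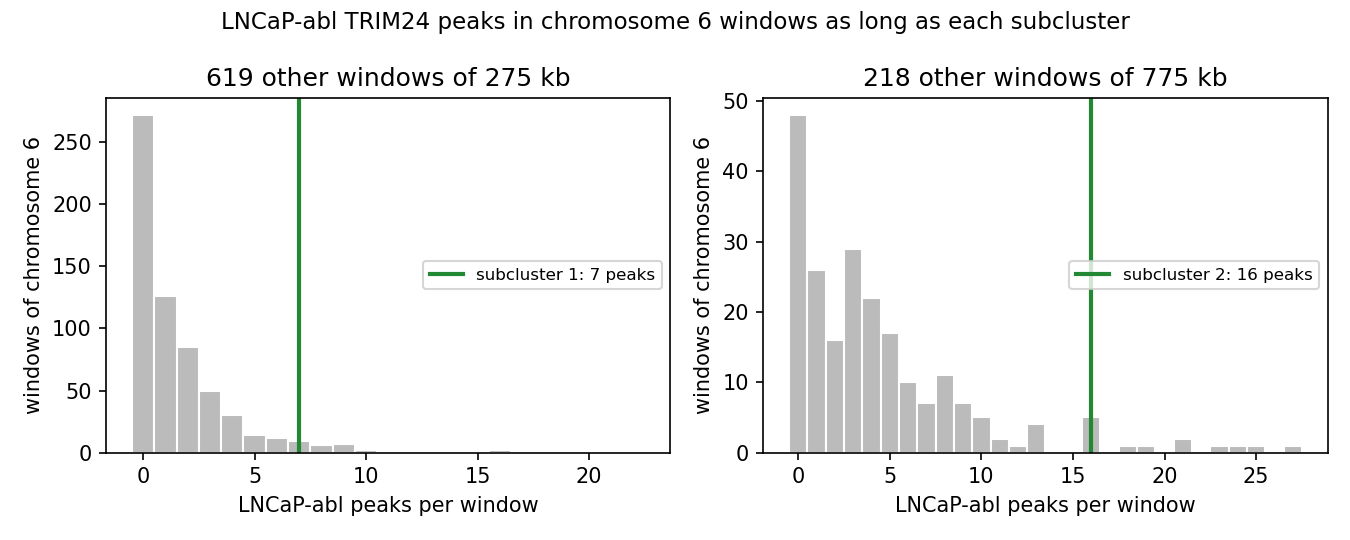
LNCaP-abl peaks per window (x axis) against the number of chromosome 6 windows (y axis), for windows as long as subcluster 1 (left, 275 kb) and subcluster 2 (right, 775 kb). The vertical lines mark the subclusters, at 7 and 16 peaks; 30 and 13 windows reach them.

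The LNCaP-abl peaks in the HIST1 intervals had a lower median score and width than those in the rest of chromosome 6, but values close to those between the subclusters. Their median score was 11.7 (quartiles 7.44 and 20.2), against 28.8 (9.75 and 72.0) in the rest of chromosome 6. Their median width was 311 bp (272 and 433.5) against 519 bp (303 and 859.5). Of the 23 peaks, 2 (8.70%, 1.07 to 28.04) reached the median score of the list, against 53.2% (50.03 to 56.4) in the rest of chromosome 6 and, by construction, 50% of the whole list. Subcluster 1 had a median score of 8.91 and subcluster 2 of 14.8. Between the subclusters the median score was 9.87 and the median width 311.5 bp.

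The high density of the histone intervals was found among peaks of low score. Below the median score of the LNCaP-abl list they held 21 peaks, or 20.0 per Mb against 2.71 in the rest of the chromosome, a ratio of 7.38 (4.53 to 11.4). At or above the median they held 2 peaks, or 1.90 per Mb against 3.08, a ratio of 0.619 (0.0747 to 2.25). The 2 ratios split the same LNCaP-abl members by score, so they repeat the share at or above the median given above. Their ranges did not overlap, but they reflect counting error alone, as if neighbouring peaks were independent. Low scores also prevailed between the subclusters, where 3 of 16 LNCaP-abl peaks were at or above the median of the list. Under DHT both members were at or above the median of their list, where the ratio was 2.25 (0.269 to 8.26), and 0 were below it. Under vehicle the ratio was 0.742 (0.0187 to 4.18) at or above the median and 0.874 (0.0220 to 4.93) below it, with 1 peak each. With every list shortened to its 7105 best-scoring peaks, which for LNCaP-abl meant a score of at least 49.6, the members were 2 vehicle peaks, 2 DHT peaks and 1 LNCaP-abl peak. In lists of equal length, LNCaP-abl thus had no larger number of histone-interval peaks than LNCaP, and its density ratio was 0.447 (0.0113 to 2.51), a range that includes 1 and rests on 1 peak.

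**Figure D4:**
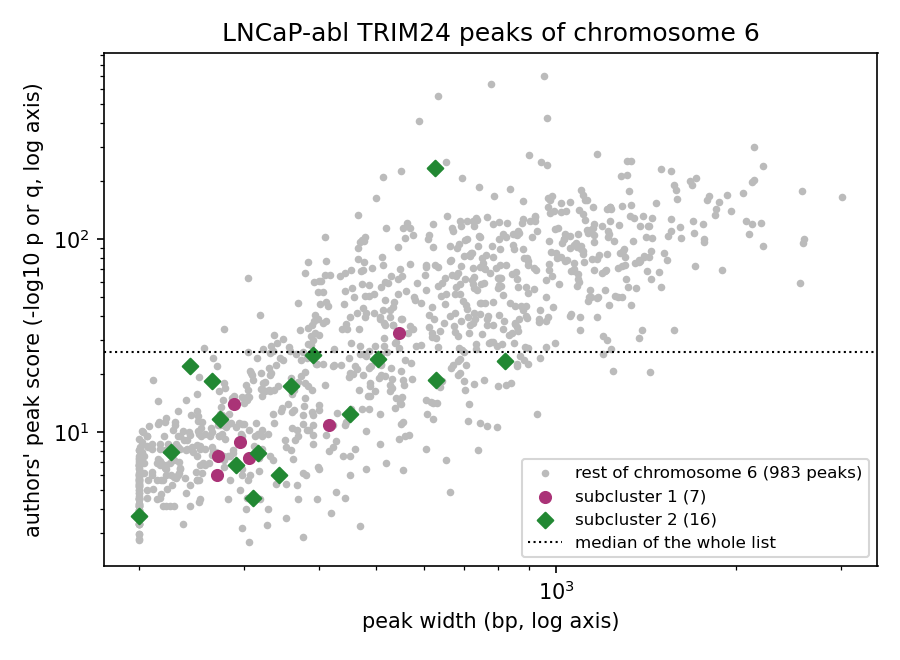
Width in bp (x axis, log) against the authors' score (y axis, log) of the 1006 LNCaP-abl peaks of chromosome 6. Grey points are the 983 peaks outside the HIST1 intervals, coloured symbols the 7 and 16 peaks of the subclusters, and the dotted line the median score of the whole list. All but 2 coloured symbols lie below that line.

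Few of the members were shared with LNCaP. A vehicle peak was present at 2 of the 23 LNCaP-abl members (8.70%, 1.07 to 28.04), against 31.2% (28.3 to 34.2) in the rest of chromosome 6 and 36.0% of the whole list. A DHT peak was present at 2 of the 23 as well (the same share), against 25.3% (22.6 to 28.2) and 27.4%. In neither LNCaP list were 20 of 23 (87.0%, 66.4 to 97.2), against 61.5% (58.4 to 64.6) and 57.8%. Among peaks below the median score the difference was smaller, with 19 of 21 members (90.5%, 69.6 to 98.8) and 88.5% (85.2 to 91.2) of the rest of chromosome 6 in neither LNCaP list. At these low scores, the share of members lay within counting error of that of the other peaks.

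In the opposite direction, both vehicle peaks and both DHT peaks of the histone intervals overlapped a LNCaP-abl peak, against 88.4% and 88.8% of the whole lists. Of the 2 vehicle peaks 1 overlapped a DHT peak, against 48.6% of the vehicle list, and of the 2 DHT peaks 1 overlapped a vehicle peak, against 66.7% of the DHT list. With 2 peaks in each list these counts set no share apart from that of the whole list.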

How the data were processed

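Peak lists of 3 TRIM24 libraries were analysed, 1 for each condition, with groups taken from the labels. FastQC 0.10.0, Bowtie 0.12.7 and MACS2 2.0 with build hg19 are named in the submitters' processing notes. Which control, read filter and cutoff were used is not given in the sources used here. Each peak carries the score the authors deposited, a −log10 p-value or −log10 q-value; the files do not say which. Starts were converted to count from 1.

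The intervals, lists and comparisons were chosen with earlier results of these data known. Overlap meant at least 1 bp, computed with Python 3.11.15 (numpy 2.4.6, pandas 2.3.3, scipy 1.17.1), tested on simulated lists and checked against bedtools 2.31.1. Density used chromosome 6 up to its last peak. Windows were laid end to end from each subcluster. Named regions are those in all lists, the 6 best-scoring and the 3 best-scoring LNCaP-abl-only ones of each subcluster, any without a LNCaP-abl peak, and the lowest-scoring; close pairs were added after their values were seen, as were the octamer and H1 box strings. H4C1, H4C3, H2AC12, H3C11 and H3C12 had no promoter window. Alternatives concerned overlap, width, score, list length and interval bounds. Figures were drawn with matplotlib 3.10.9.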

Additional observations from a re-analysis of the deposited data

How the results depend on the processing

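Of 115 alternative values for 25 results, 89 stayed within 1.5 times the count or within the interval of the reported value, 24 moved and 2 reversed. This tally says little about the LNCaP lists, whose shares and ratios rest on 2 peaks each and have wide ranges. For the share of vehicle peaks under DHT, for example, the range was 1.26 to 98.7%, which few alternatives could leave. Shifted windows, peaks of 400 bp, matching within 1 kb and membership by any overlap moved none. For the LNCaP lists in subcluster 1, which held 0 peaks, the share of windows is 100% under any shift, so it could not move. In the better-scoring 50% of each list, 1 vehicle and 2 LNCaP-abl members were left, the LNCaP-abl density ratio reversed to 0.619, and median score and width were 132.9 and 586 bp. The share of vehicle peaks under DHT was then 100%, the shares of LNCaP-abl peaks under vehicle and under DHT were 50%, 1 region was in LNCaP-abl alone, 0 were shared with vehicle alone or with DHT alone, and 1 lacked a LNCaP-abl peak. In lists of equal length 1 LNCaP-abl member was left, with a score of 233 and a width of 626 bp; the density ratio reversed to 0.447, both LNCaP-abl shares were 100%, 0 regions were in LNCaP-abl alone or shared with vehicle alone or DHT alone, and 2 lacked a LNCaP-abl peak. The ranges of both reversed ratios include 1 (0.0747 to 2.25 and 0.0113 to 2.51). Both settings use fewer peaks by construction. With a reciprocal overlap of at least 50%, 0 regions were shared by vehicle and LNCaP-abl alone and 1 lacked a LNCaP-abl peak. With the intervals extended by 50 kb at each end these counts were 2 and 1. No paired analysis was possible because there was only 1 library per condition, which also left none to omit. The unknown depth limits any reading of absent peaks.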
